A study of Saccharomyces cerevisiae with 10 samples.

Results

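The genes described here encode nuclear subunits of the yeast respiratory chain and of the mitochondrial ATP synthase. They were chosen by function, as a list of 36 open reading frames: 3 of complex II, 9 of complex III, 2 of cytochrome c, 9 of complex IV, 11 of the ATP synthase and 2 NADH dehydrogenases. Of these, 35 had a value on all 10 arrays and were among the 5744 genes tested, in a table of 5983 rows; CYC7 (YEL039C) was not analysed here. The list does not hold every nuclear subunit: SDH1, NDE2, ATP18 and TIM11, for example, lie outside it and were placed among related genes. The rule for the list names functions and uses no measured value. Members, lists and tests were still chosen with earlier results of these data known. The arrays carried total RNA of Saccharomyces cerevisiae under heat shock, taken at 0, 5, 15, 30 and 60 min from strain DBY8778, read here as the wild type, and from a strain with KIN82 deleted, with 1 array per strain and time. KIN82 encodes a protein kinase that acts on lipid flippases; its own level was not analysed here. DBY8778 arrays are titled as a second heat shock, and the deletion arrays of 0 and 60 min are titled as repeats. Each strain is therefore 1 time course, so that strain and time course cannot be told apart, and it is not known whether 1 culture supplied all times. For culture conditions, temperatures and other alleles of the strains the labels hold no entry.

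Complex II (succinate dehydrogenase) and the NADH dehydrogenases pass electrons to ubiquinone, complex III passes them on to cytochrome c, and complex IV (cytochrome c oxidase) hands them to oxygen. Complexes III and IV pump protons across the inner mitochondrial membrane, and the ATP synthase uses the returning protons to make ATP. Budding yeast has no proton-pumping complex I and uses single-subunit NADH dehydrogenases instead. Its respiratory genes are known for repression by glucose and for activation by the HAP complex, whose activating subunit is Hap4.

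Every value below is a log2 ratio of the sample over a common reference, centred on the median of its array. A gene that moved with the median gene therefore stays level. A change in RNA per cell and a change relative to the median gene cannot be told apart on this scale, which gives no share of all RNA. The arrays held 5844 to 5949 values each. The base of the log was read as 2, which no label states, and the direction is the likely one, since all 20 chaperones measured at both times in the wild type and all 21 in the deletion stood higher at 15 than at 0 min. The spread over all genes moved with the time of heat as well, and its part in the results was not tested beyond the scaling alternatives: the SD was 0.62 (wild type) and 0.66 (deletion) at 0 min, 0.87 to 1.27 at 5, 15 and 30 min, and 0.64 and 0.55 at 60 min. Standard errors and adjusted p-values come from a limma fit of time and strain to all 10 arrays, adjusted by the Benjamini-Hochberg method over all genes tested; a call is an adjusted p under 0.05. All comparisons with 0 min share the same pair of 0 min arrays. Array values are listed in the order 0, 5, 15, 30 and 60 min.

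Genes that rose with heat were found in complexes II and III and included 1 gene of complex IV, COX5B, while no gene of the ATP synthase passed the test when the heated times were averaged. In the mean of 5 to 60 min against 0 min, 6 of the 35 genes rose and 0 fell, against 5.76% of all genes called higher. The risen genes were SDH3, QCR2, QCR7, QCR8, CYT1 and COX5B. The change was above 0 in 30 of 35 genes, with a median of 0.32, while over all genes tested it was above 0 in 52.2%, with a median of 0.03. By complex, the median change was 0.75 for complex II, 0.72 for complex III, 0.04 for complex IV and 0.16 for the ATP synthase. The count rests on the 0 min arrays: it dropped to 0 when the wild type 0 min array was left out and to 1 when that of the deletion was.

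**Figure D1:**
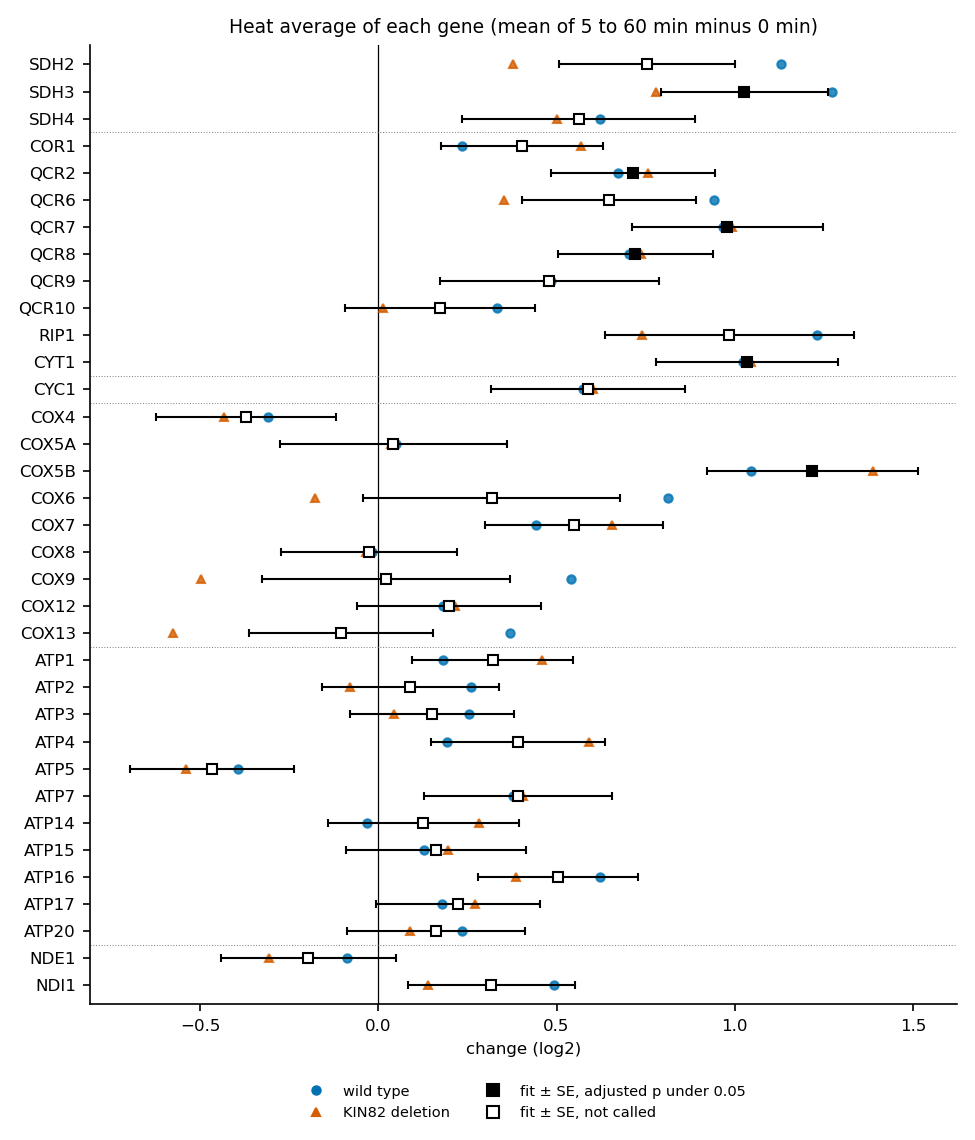
Mean change over 5 to 60 min against 0 min (x axis, log2) for each of the 35 genes, grouped by complex from complex II at the top to the NADH dehydrogenases at the bottom. Circles and triangles are the wild type and the deletion, squares the fitted change ± SE, and filled squares are the 6 genes called, of which 4 lie in complex III.

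Of the 3 listed genes of complex II, 1 rose over the heated times, against 5.76% of all genes, and all 3 had a mean change above 0. SDH3 (YKL141W), a membrane anchor subunit, had values of 0.57, 2.39, 2.31, 1.32 and 1.35 for the wild type and 0.50, 1.49, 1.60, 1.08 and 0.96 for the deletion. All 8 heated arrays lay above both 0 min arrays, and the highest values were at 5 and 15 min. Its mean change was 1.03 ± 0.23 (2.04-fold, adjusted p = 0.00668), and this call was lost only without the wild type 0 min array (0.78, adjusted p = 0.285), among 16 alternatives. SDH4 (YDR178W), the other anchor subunit, had values of 1.40, 3.13, 2.11, 1.67 and 1.17 for the wild type and 1.75, 2.12, 3.24, 2.60 and 1.05 for the deletion. Both of its 60 min arrays lay below both 0 min arrays, so the groups overlapped, and the peak came at 5 min in the wild type and at 15 min in the deletion. SDH2 (YLL041C), the iron-sulfur subunit, was the single gene of the 35 called at 30 min and is named for that after its values were seen. Its values were 0.06, 1.05, 1.62, 1.63 and 0.46 for the wild type and 0.84, 1.52, 1.52, 1.32 and 0.52 for the deletion, where the 60 min array lay below 0 min.

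Complex III held 4 of the 6 risen genes. Of its 9 genes, 4 rose over the heated times, against 5.76% of all genes, 0 fell, and all 9 had a mean change above 0. CYT1 (YOR065W) encodes cytochrome c1, the subunit that passes electrons to cytochrome c. Its values were 0.56, 1.77, 2.0, 1.64 and 0.93 for the wild type and 0.50, 1.28, 2.78, 1.45 and 0.69 for the deletion. All 8 heated arrays lay above both 0 min arrays, with the highest value of either strain at 15 min. Its mean change was 1.04 ± 0.25 (2.05-fold, adjusted p = 0.0104). QCR7 (YDR529C), a small structural subunit, had values of -0.02, 0.46, 1.43, 1.33 and 0.56 for the wild type and 0.27, 0.68, 2.45, 0.80 and 1.10 for the deletion. Here too no heated array overlapped the 0 min arrays, and the mean change was 0.98 ± 0.27 (adjusted p = 0.0195).

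QCR8 (YJL166W), another small subunit that lies beside Qcr7 and cytochrome b, had values of 0.05, 1.19, 1.14, 0.55 and 0.13 for the wild type and 0.04, 1.23, 1.33, 0.32 and 0.20 for the deletion. The 2 strains followed nearly the same course, and all 8 heated arrays lay above both 0 min arrays, by little at 60 min. The mean change was 0.72 ± 0.22 (adjusted p = 0.0337). QCR2 (YPR191W), one of the core proteins, had values of 0.17, 0.80, 1.32, 0.84 and 0.40 for the wild type and 0.10, 1.02, 1.22, 1.21 and -0.02 for the deletion. Only its 60 min array of the deletion overlapped the 0 min arrays; the mean change was 0.72 ± 0.23 (adjusted p = 0.0467). Not called, RIP1 (YEL024W), the Rieske iron-sulfur protein, had a mean change of 0.98 ± 0.35 (adjusted p = 0.0724), with its wild type value highest at 30 min. The calls of these 4 genes were lost without either 0 min array; the values without 1 array ranged from 0.91 to 1.16 for CYT1, 0.85 to 1.11 for QCR7, 0.68 to 0.76 for QCR8 and 0.65 to 0.78 for QCR2. QCR7 and QCR8 also lost theirs without the deletion 60 min array, QCR8 without the wild type 30 or 60 min array, and QCR2 without 1 of 4 further arrays (wild type 15 or 60 min, deletion 5 or 30 min). Of 16 alternatives, the call held in 12 for CYT1 and for QCR7, 8 for QCR8 and 5 for QCR2. Quantile normalization ended the calls of CYT1, QCR8 and QCR2, and equal median absolute deviation those of QCR8 and QCR2. With no centring or with a looser filter, QCR2 was not called either.

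**Figure D2:**
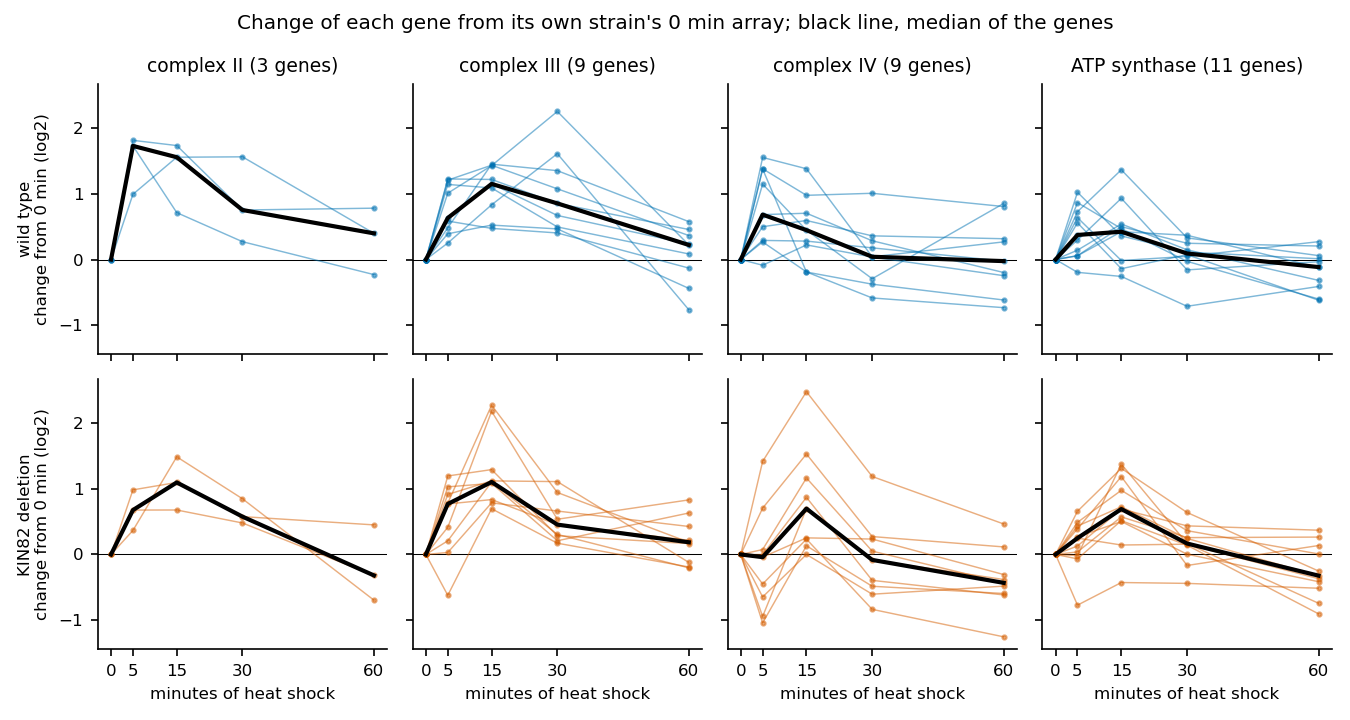
Change of each gene from the 0 min array of its own strain (y axis, log2) against minutes of heat shock (x axis), for the wild type (top row) and the KIN82 deletion (bottom row). Thin lines are single genes and the black line is their median; the median of complex III was 1.15 for the wild type and 1.11 for the deletion at 15 min, and 0.22 and 0.19 at 60 min.

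Cytochrome c followed another course. CYC1 (YJR048W), the main cytochrome c of aerobic cells, had values of -0.88, -0.70, -0.57, -0.27 and 0.33 for the wild type and -0.37, -0.92, 0.75, -0.06 and 1.18 for the deletion. It was the single gene of the 35 with its highest value at 60 min, and this held in both strains. At 60 min it stood 1.38 ± 0.35 above 0 min (adjusted p = 0.0644, not called), and its mean change over heat was 0.59 ± 0.27 (adjusted p = 0.171, not called). It was called with equal median absolute deviation (0.81, adjusted p = 0.0438) and after quantile normalization (0.98, adjusted p = 0.0446).

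Complex IV genes showed no common shift in the mean over the heated times: 1 of 9 rose and 0 fell, against 5.76% of all genes called higher. Above 0 lay 6 of the 9 changes, which ran from -0.37 (COX4, YGL187C) to 1.22. The gene that rose was COX5B (YIL111W), which encodes the isoform of subunit V known from hypoxic cells. COX5B had values of 0.36, 1.74, 1.34, 1.37 and 1.17 for the wild type and 0.10, 1.52, 2.58, 1.29 and 0.56 for the deletion. All 8 heated arrays lay above both 0 min arrays. Its mean change was 1.22 ± 0.30 (2.33-fold, adjusted p = 0.00986), the largest among the 35 genes, and the call was lost without the wild type 0 min array (1.39, adjusted p = 0.0940) or the deletion 0 min array (1.05, adjusted p = 0.185).

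COX5A (YNL052W), the isoform known from aerobic cells, had values of -0.36, 1.02, -0.55, -0.74 and -0.98 for the wild type and 0.11, 0.07, 0.36, 0.34 and -0.20 for the deletion. The wild type was above its 0 min array at 5 min alone, and the deletion moved little. Its mean change was 0.04 ± 0.32, which fell to -0.18 without the wild type 5 min array. The difference of COX5B minus COX5A within an array, which does not depend on centring, was 0.72, 0.73, 1.89, 2.11 and 2.15 for the wild type and -0.01, 1.45, 2.22, 0.94 and 0.76 for the deletion. All 8 heated arrays exceeded both 0 min arrays, although the wild type at 5 min and the deletion at 60 min did so by very little. The mean was 1.53 over heated and 0.36 over 0 min arrays, a difference of 1.18 with a two-sided exact permutation p of 0.0222, the smallest that 45 assignments allow. The permutation exchanged arrays freely over strains and times. Its p therefore takes no account of strain or of the arrays of a strain forming 1 time course. Without 1 array the difference ranged from 0.81 to 1.54, and its p reached 0.222 without the deletion 0 min array, where 0.111 is the smallest possible. The 2 genes are paralogues, and whether the array probes separated them is not known. The same holds for every other gene here with close relatives in the genome. SDH3, SDH4 and CYC1 are examples, and the limit extends to the NADH dehydrogenases and to the related genes below.

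**Figure D3:**
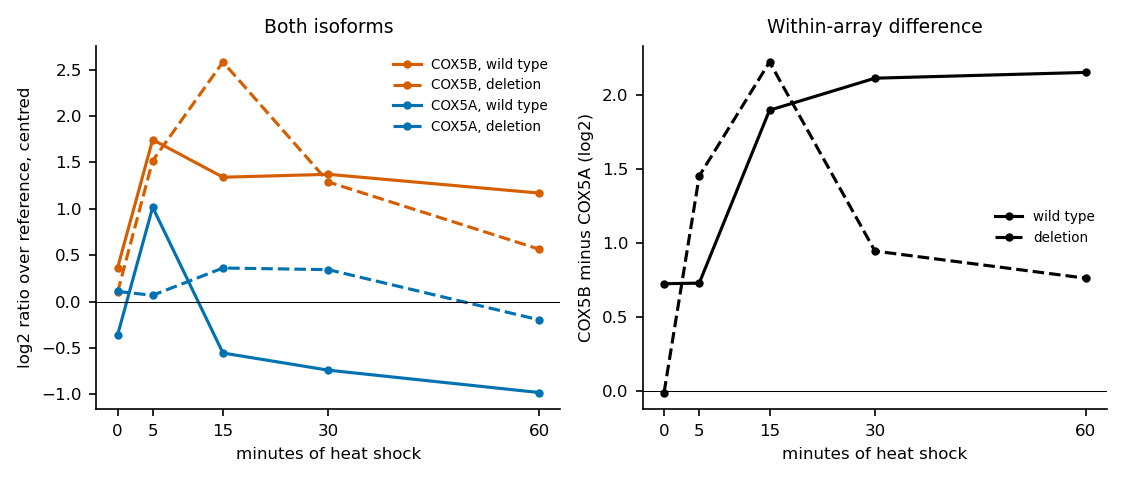
Left, centred log2 ratio over the reference (y axis) of COX5B and COX5A by minutes of heat shock (x axis), solid in the wild type and dashed in the deletion. Right, the difference of COX5B minus COX5A within each array; in the wild type it lay between 1.89 and 2.15 at 15 to 60 min, and in the deletion it was 2.22 at 15 min and 0.76 at 60 min.

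In the ATP synthase, 0 of 11 genes were called over the heated times (limma, 1 of 11 at an unadjusted p under 0.05), against 5.76% of all genes called higher. Still, 10 of 11 changes lay above 0, against 52.2% of all genes. The exception was ATP5 (YDR298C), the stalk subunit also called OSCP, at -0.47 ± 0.23 (adjusted p = 0.202, not called), which lay below its 0 min array at every heated time in both strains. At 15 min alone, ATP16 (YDL004W), the delta subunit of the F1 head's central stalk, had risen by 1.28 ± 0.28 (2.42-fold, adjusted p = 0.00356). The call was lost only without the wild type 0 min array (adjusted p = 0.0686), among 16 alternatives. ATP15 (YPL271W), the epsilon subunit beside it, rose by 0.96 ± 0.32 at 15 min (adjusted p = 0.0404) in the same fit, and is named after its values were seen. Its rise came mostly from the deletion, where the 15 min value was 1.35 against -0.03 at 0 min, compared with 0.46 against -0.08 in the wild type. Without the deletion 15 min array the change of ATP15 was 0.47.

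Of the NADH dehydrogenases, NDI1 (YML120C), which oxidises NADH inside the mitochondrion, was high early. Its values were 0.57, 1.59, 1.44, 0.83 and 0.38 for the wild type and 0.82, 1.80, 0.91, 0.64 and 0.49 for the deletion. Both strains peaked at 5 min and lay below their 0 min array at 60 min. The rise at 5 min was 1.01 ± 0.30 (adjusted p = 0.0472), a call that held in 3 of 16 alternatives. NDE1 (YMR145C), which oxidises cytosolic NADH at the outer face of the membrane, was not called in any comparison and had its highest value at 30 min in both strains.

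The number of genes called was highest at 15 min and was 0 at 60 min. At 5 min, 4 of 35 genes had risen (SDH3, QCR8, COX5B and NDI1) and 0 had fallen, against 3.75% of all genes called higher. At 15 min, 11 had risen and 0 had fallen, against 9.51% of all genes called higher. There 33 of 35 changes lay above 0, with a median of 0.72, against 53.2% of all genes. The 11 genes were SDH2, SDH3, QCR2, QCR6, QCR7, QCR8, CYT1, COX5B, COX7, ATP15 and ATP16, and their changes ran from 0.96 to 1.86. CYT1 was the highest of them, at 1.86 ± 0.32 (3.62-fold, adjusted p = 0.000513), followed by QCR7 at 1.82 ± 0.34 (3.53-fold, adjusted p = 0.000913), and both kept their call in 16 of 16 alternatives. Leaving out the deletion array of 15 min left 7 genes called. The genes COX5B (0.96), COX7 (0.58), QCR6 (0.94) and ATP15 (0.47) then missed the call. At 30 min 1 gene stood higher (SDH2, 1.02 ± 0.31, adjusted p = 0.0436), against 4.32% of all genes. The SDH2 change at 30 min was 1.57 for the wild type and 0.48 for the deletion, and the call held in 8 of 16 alternatives, with 0.65 without the wild type 0 min array. At 60 min 0 genes were called in either direction (limma, 2 of 35 at an unadjusted p under 0.05), against 1.39% of all genes. By then 14 of 35 changes lay above 0, with a median of -0.08, against 49.0% of all genes. Genes such as SDH3, COX5B, QCR7 and CYC1 still stood above 0 min in both strains. Leaving out single arrays moved the count at 15 min between 3 (without the wild type 0 min array) and 15, and that at 5 min between 0 (without the wild type 0 or 5 min array) and 8. It moved the count at 30 min between 0 (without the wild type 0 or 30 min array) and 6.

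The time of the highest value was not the same in the 2 courses. In the wild type 16 of 35 genes (45.7%) had their highest value at 5 min and 13 (37.1%) at 15 min, where 21.1% and 22.0% of all genes peaked. In the deletion 2 (5.71%) peaked at 5 min and 29 (82.9%) at 15 min, where 15.5% and 28.4% of all genes peaked. In complex IV at 5 min, 8 of 9 genes stood above 0 min in the wild type, with a median change of 0.68, and 3 of 9 in the deletion, with a median of -0.04. At 15 min the medians were 0.45 and 0.70. With 1 array per strain and time these are single readings, and the difference in timing was not tested.

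Within the heat course, the mean of 30 and 60 min was compared with that of 5 and 15 min, which leaves out the 0 min arrays. Here 8 of 35 genes were lower at the late times and 0 higher, against 5.58% of all genes called lower, and 32 of 35 changes lay below 0 with a median of -0.51, while 49.8% of all genes were above 0. The lower genes were SDH3, SDH4, QCR8, CYT1, COX13, ATP16, ATP17 and NDI1. The largest fall was that of SDH4, at -1.03 ± 0.29 (2.04-fold lower, adjusted p = 0.0306), called in 8 of 16 alternatives; leaving out the wild type 5 min array gave -0.63 (not called), and it was -0.25 after quantile normalization. Of the 8, the one kept most often was that of QCR8, at -0.92 ± 0.19 (adjusted p = 0.00547), called in 15 of 16 alternatives. CYC1 went the other way, at 0.65 ± 0.24 (adjusted p = 0.0980, not called). The count ran from 1 (without the wild type 60 min array) to 13 (without the deletion 5 min array) when single arrays were left out, and it was 0 after quantile normalization.

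COX13 (YGL191W), a small subunit of complex IV, had values of 0.56, 1.24, 1.26, 0.84 and 0.36 for the wild type and 1.49, 1.04, 1.73, 0.66 and 0.24 for the deletion. It was lower at 30 and 60 min than at 5 and 15 min in both strains, and the late change was -0.79 ± 0.23 (adjusted p = 0.0340). ATP17 (YDR377W), a membrane subunit of the ATP synthase, had values of 0.29, 1.16, 0.76, 0.26 and -0.31 for the wild type and 0.64, 1.07, 1.36, 0.88 and 0.31 for the deletion. It showed the same order, and its late change was -0.80 ± 0.21 (adjusted p = 0.0179). Those of SDH3 (-0.77), CYT1 (-0.78), NDI1 (-0.85) and ATP16 (-0.83) were of like size, with adjusted p-values of 0.0127 to 0.0340 in the same fit. Of 16 alternatives, these late calls held in 12 for ATP16, 9 for NDI1, 8 for ATP17, 7 for SDH3, 6 for COX13 and 5 for CYT1. With no centring, COX13 and CYT1 were not called.

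Between the strains, 5 genes of the ATP synthase and 1 of complex III stood higher in the KIN82 deletion. Over all 5 times 6 of 35 genes were higher in the deletion, against 6.6% of all genes called higher, and 0 were lower, against 5.38% of all genes. The higher genes were ATP1, ATP2, ATP3, ATP4, ATP16 and QCR6. Of the 5 genes of F1 (the catalytic head with its central stalk) 4 were called, with a median difference of 0.76. Of the 6 other ATP synthase genes 1 was called, with a median of 0.22, and 2 of these differences lay below 0. ATP14 (YLR295C) was the lower of those, at -0.49 ± 0.21 (adjusted p = 0.147, not called), with the deletion lower at every time but 60 min. Outside the 35 genes, the ATP synthase subunits TIM11 (YDR322C-A) and ATP18 (YML081C-A) also went the other way, and neither was called. For TIM11 the deletion was lower at every time, with differences from -0.79 to -0.33. For ATP18 it was lower at every time but 15 min, where the difference was 0.80. The median was 0.26 over the 35 genes and 0.01 over all genes. The division of the ATP synthase into F1 and the rest was made after the values were seen, and each strain is 1 time course.

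ATP3 (YBR039W), the gamma subunit that turns inside the head, differed most. Its values were -0.57, -0.51, -0.07, -0.32 and -0.36 for the wild type and 0.74, 0.99, 0.88, 0.90 and 0.37 for the deletion. Every deletion array lay above every wild type array, heated or not. The difference was 1.14 ± 0.18 (2.21-fold, adjusted p = 0.00220), and it was called in 18 of 19 alternatives, the exception being a fit with no time term (adjusted p = 0.0917).

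ATP16 had values of -0.60, 0.13, 0.77, -0.27 and -0.54 for the wild type and 0.47, 0.86, 1.66, 0.30 and 0.61 for the deletion. The deletion was higher at 5 of 5 times while the ranges of the strains overlapped, and the difference was 0.89 ± 0.18 (1.85-fold, adjusted p = 0.00885), called in 16 of 19 alternatives. ATP2 (YJR121W), the catalytic beta subunit, had values of -0.31, -0.02, 0.62, -0.47 and -0.35 for the wild type and 0.72, 0.65, 1.23, 0.86 and -0.19 for the deletion. The strains were closest at 60 min, and the difference was 0.76 ± 0.20 (adjusted p = 0.0251). ATP1 (YBL099W), the alpha subunit, had values of 0.13, 0.19, 0.56, 0.50 and 0.01 for the wild type and 0.51, 1.0, 1.49, 0.88 and 0.52 for the deletion. It differed by 0.60 ± 0.18 (adjusted p = 0.0425), with the deletion higher at 5 of 5 times. ATP15, the remaining F1 gene, differed by 0.11 and was not called.

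Outside F1, ATP4 (YPL078C), subunit b of the peripheral stalk, had values of -0.27, 0.10, 0.15, -0.18 and -0.39 for the wild type and 0.11, 0.77, 1.42, 0.75 and -0.15 for the deletion. The gap was widest at 15 min, and the difference was 0.70 ± 0.20 (adjusted p = 0.0326). QCR6 (YFR033C), the acidic hinge subunit of complex III, had values of -0.45, 0.78, 0.77, 0.41 and 0.01 for the wild type and 0.76, 0.97, 1.87, 1.07 and 0.56 for the deletion. It was higher in the deletion at 5 of 5 times, by least at 5 min, and the difference was 0.74 ± 0.20 (adjusted p = 0.0257). The calls were less firm for ATP2 (11 of 19 alternatives), QCR6 (7), ATP4 (6) and ATP1 (4) than for ATP3. Values without 1 array ran from 0.62 to 0.91 for ATP2, 0.62 to 0.88 for QCR6, 0.55 to 0.81 for ATP4 and 0.52 to 0.66 for ATP1, and the count of the 35 genes ran from 2 (without either 0 min array or either 30 min array) to 7.

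**Figure D4:**
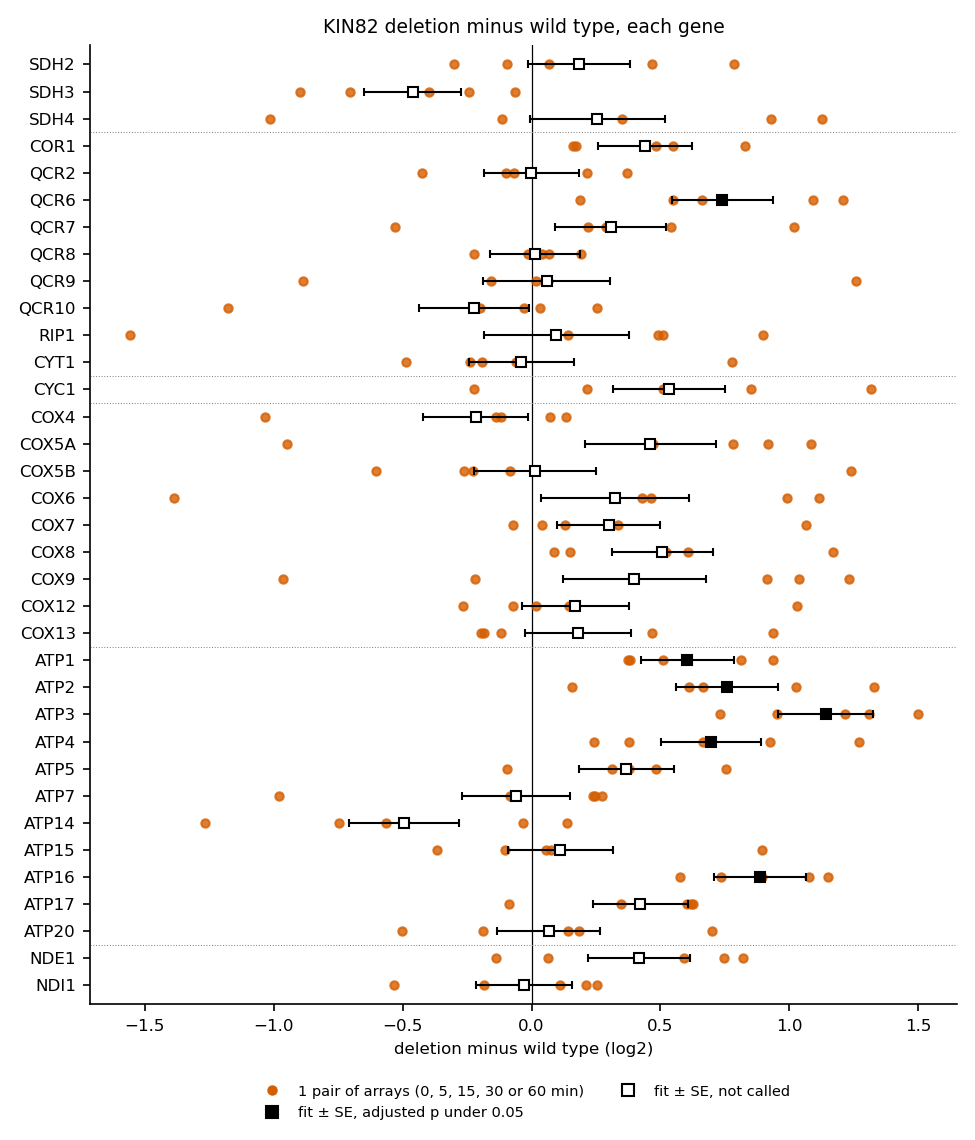
Difference of the KIN82 deletion minus the wild type (x axis, log2) for each of the 35 genes, grouped by complex. Points are the 5 pairs of arrays of equal time and squares the fitted difference ± SE, filled for the 6 genes called; for ATP3 the 5 points lie between 0.73 and 1.5.

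The strain difference also varied by time. At 15 min 9 of 9 complex IV genes and 10 of 11 ATP synthase genes were higher in the deletion, with median differences of 0.92 and 0.70, while 52.5% of all genes were higher. At 5 min this held for 2 of 9 and 5 of 11, with medians of -0.23 and -0.09, beside 50.0% of all genes. Whether heat changed the genes differently in the strains was tested with a strain by heat term, and 0 of the 35 genes were called (limma; 0 at an unadjusted p under 0.05), against 0% of all genes (130 of 5744 at an unadjusted p under 0.05). That term rests on 1 pair of 0 min arrays and does not test single times.

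Genes that work with the respiratory chain were read from lists of 59 related genes, of which 52 were tested. Among 7 further subunits and inhibitors tested, 3 rose over the heated times, against 5.76% of all genes: the ATP synthase inhibitors INH1 (YDL181W) and STF1 (YDL130W-A), which restrain the enzyme from splitting ATP, and SDH1 (YKL148C), the flavoprotein subunit of complex II. STF1 had values of 0.41, 1.09, 3.53, 3.38 and 1.35 for the wild type and 0.49, 0.85, 3.67, 2.54 and 1.46 for the deletion. INH1 had values of -0.32, 1.83, 1.39, 1.42 and 0.63 for the wild type and -0.39, 1.33, 1.83, 1.24 and 0.27 for the deletion. All 8 heated arrays lay above both 0 min arrays for either inhibitor, and STF1 was highest at 15 min in both strains, while INH1 was highest at 5 min in the wild type and at 15 min in the deletion. The mean changes were 1.78 ± 0.24 for STF1 (3.44-fold, adjusted p = 0.000239) and 1.59 ± 0.24 for INH1 (3.01-fold, adjusted p = 0.000419), each called in 16 of 16 alternatives, while the median change of the 11 ATP synthase genes was 0.16. SDH1, named after its values were seen, had a mean change of 0.83 ± 0.22 (adjusted p = 0.0183).

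**Figure D5:**
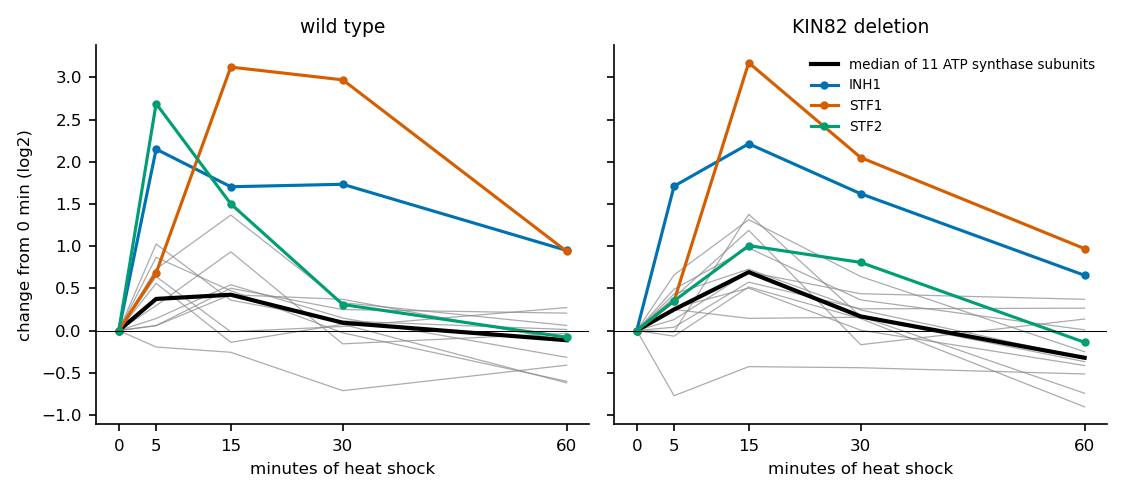
Change from 0 min of the same strain (y axis, log2) against minutes of heat shock (x axis) for INH1, STF1 and STF2. Grey lines are the 11 listed ATP synthase subunits, and the black line is their median. At 15 min STF1 stood 3.12 above 0 min for the wild type and 3.17 for the deletion, while the subunit median was 0.42 and 0.69.

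STF2 (YGR008C), a protein first described as a stabilising factor of the inhibited ATP synthase, differed between the strains. Its values were 2.41, 5.10, 3.91, 2.72 and 2.33 for the wild type and 1.47, 1.82, 2.47, 2.27 and 1.33 for the deletion. The deletion was lower at 5 of 5 times, most at 5 min, and the difference was -1.42 ± 0.31 (2.68-fold lower, adjusted p = 0.0118). It was called in 18 of 19 alternatives, and was -0.96 without either 5 min array. NDE2 (YDL085W), the second outer NADH dehydrogenase, was also lower in the deletion, at -1.16 ± 0.36 (adjusted p = 0.0477). Its wild type value at 15 min was 3.03 against -0.48 in the deletion, and without either 15 min array the difference was -0.57 and not called. SDH1 was lower in the deletion, at -0.68 ± 0.18 (adjusted p = 0.0258). Of the 7 genes of this list tested, 3 were thus lower and 0 higher in the deletion, against 5.38% and 6.6% of all genes. All 7 differences lay below 0, with a median of -0.55, while 51.0% of all genes lay above 0.

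Of 28 assembly factors tested, 2 rose over the heated times, a share near the 5.76% of all genes: SDH5 (YOL071W), which helps attach the flavin of Sdh1, by 1.34 ± 0.22 (2.53-fold, adjusted p = 0.000772), and COX15 (YER141W), which makes the haem A of complex IV, by 0.74 ± 0.22 (adjusted p = 0.0349). COX15 and PET191 (YJR034W), a complex IV assembly factor, were lower in the deletion, at -0.59 ± 0.18 (adjusted p = 0.0443) and -0.73 ± 0.20 (adjusted p = 0.0304). Of 8 ubiquinone synthesis genes tested, 2 rose, against the same 5.76%: COQ4 (YDR204W) by 1.22 ± 0.25 (adjusted p = 0.00283) and COQ6 (YGR255C), a hydroxylase of the ring, by 0.77 ± 0.24 (adjusted p = 0.0389). Of 3 carriers tested 0 were called over heat (limma, 1 at an unadjusted p under 0.05), against the same 5.76%. PET9 (YBL030C), the main ADP/ATP carrier, was higher in the deletion by 0.75 ± 0.20 (adjusted p = 0.0257). Without the wild type or the deletion 0 min array, SDH1, COX15, COQ4 and COQ6 were not called over heat; the strain calls held in 8 of 19 alternatives for SDH1 and PET191, 9 for PET9 and 3 for COX15.

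Of 6 regulators tested 0 were called over heat (limma, 1 at an unadjusted p under 0.05), against 5.76% of all genes called higher. HAP4 (YKL109W), the activating subunit of the HAP complex, had values of 0.51, 1.93, 0.99, 0.64 and 0.19 for the wild type and 0.44, 1.16, 0.80, -0.33 and -0.37 for the deletion. It was highest at 5 min in both strains and below its 0 min array at 60 min in both. The change at 5 min was 1.07 ± 0.30 (2.11-fold, adjusted p = 0.0395), a call that held in 7 of 16 alternatives, and the late change against 5 and 15 min was -1.19 ± 0.21 (2.28-fold lower, adjusted p = 0.00192), which held in 16 of 16. Its mean change over heat was 0.15 and turned negative, to -0.12, without the wild type 0 min array.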

How the data were processed

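Each of 10 two-channel arrays, 5 per strain, held 1 total RNA sample against a reference in channel 2, per the labels. What the authors deposited are log ratios, read here as log2; for scanner, dyes, background correction, normalization, filters and genome build no source used here gives details. The direction (sample over reference) is the likely one: the chaperones were used to set it, and pairs of arrays correlated at 0.36 to 0.93 over all genes. Symbols came from the RefSeq table of assembly R64 for 5484 of 5983 rows. The members, lists and tests were chosen with earlier results of these data known.

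Each array was centred on its median (-0.15 to 0.03 as deposited). Genes with both 0 min values and at least 8 of 10 values entered lmFit and eBayes of limma (3.58.1, R 4.3.3; time as factor plus strain, 4 residual degrees of freedom, prior 11.0, prior SD 0.31); the strain by heat term leaves 3. With no second array per strain and time, the residual holds array noise and any strain by time effect, and p-values measure only the spread between these samples, which may be technical. P-values were adjusted by Benjamini-Hochberg over the genes tested, at a threshold of 0.05. The within-array isoform difference was tested by exact permutation over all 10 arrays, without regard to strain.

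All array values are given for genes called in the heat average, late minus early or strain comparisons, both isoform pairs and HAP4. Related genes are named where called over heat or between strains, at most 4 a list. TIM11 and ATP18 are named as well, after their values were seen. CYC7 was not analysed here, so the pair of CYC7 and CYC1 was not run, and no promoter or protein sequences were used here. Alternatives were no centring, equal median absolute deviation, quantile normalization, other filters, leaving out arrays, no time term and subsets of times. The small number of arrays limits the precision.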

Additional observations from a re-analysis of the deposited data

How the results depend on the processing

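The changes of the 35 genes kept their direction more often than their calls. Over the heated times 30 of 35 changes were above 0 with no centring and with equal median absolute deviation, and 27 after quantile normalization, with medians of 0.30, 0.19 and 0.17. Without both arrays titled as repeats, the number called was 1 in the heat average, 1 at 5 min, 6 at 15 min, 0 at 30 min, 2 in late minus early and 1 between the strains. With equal median absolute deviation it was 2 at 5 min, 7 at 15 min, 0 at 30 min, 1 at 60 min and 1 in late minus early; after quantile normalization it was 0, 5, 0, 2 and 0. At 30 min 2 genes were called with no centring and 2 among genes measured on all 10 arrays. Between the strains 0 were called with no time term, 1 over the 5, 15 and 30 min pairs and 2 over the 0 and 60 min pairs. Without single arrays the number ran from 0 to 8 in the heat average and at 5 min, 3 to 15 at 15 min, 0 to 6 at 30 min, 0 to 1 at 60 min, 1 to 13 in late minus early and 2 to 7 between the strains; strain by heat stayed at 0. The COX5B minus COX5A change ran from 0.81 to 1.54, and its p missed 0.05 without 1 of 6 arrays (wild type 0, 15, 30 or 60 min, deletion 0 or 15 min). Without single arrays the heat change of COX5A ran from -0.18 to 0.26; its sign turned without the wild type 5 min (-0.18) or the deletion 15 (-0.03), 30 (-0.06) or 60 min array (-0.01). The sign turned for HAP4 over heat (0.43 without both repeats) with equal median absolute deviation (-0.045), quantile normalization (-0.072) or without the wild type 0 min array (-0.12), and for STF2 in late minus early after quantile normalization (0.083). With no centring, the share of higher among all genes called went from 56.0% to 67.2% in late minus early and from 55.1% to 65.5% between the strains; at 60 min it went from 35.0% to 47.4% after quantile normalization. The cause of these changes was not tested, beyond the fewer arrays that some alternatives leave. The strain comparison already matches arrays of equal time. No fit with the replicate number as a block was possible because every array has the number 1.

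With 1 array per strain and time, strain differences at single times have no error estimate. Each comparison with 0 min rests on a pair of arrays, and a log ratio to a reference gives no level to compare between genes. Spot intensities were not used here, so distance from background is unknown.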

Other observations

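Among complex IV genes not given array by array above, COX6 (YHR051W) and COX9 (YDL067C) had the largest differences between the strains in their mean change over heat, and they were chosen here after their values were seen. COX6 had values of -0.003, 1.55, 1.38, 0.04 and 0.27 for the wild type and 1.11, 0.17, 1.81, 1.03 and 0.73 for the deletion. COX9 had values of -0.32, 0.83, 0.13, -0.61 and 0.54 for the wild type and 0.91, -0.13, 1.04, 0.43 and 0.32 for the deletion. For both genes the deletion stood higher at 0 min, by 1.12 and 1.23, and lower at 5 min, by -1.39 and -0.96. The strain by heat term was not called for either (adjusted p = 0.999 in the limma fit). In complex III, with the wild type given first, COR1 (YBL045C), a core protein, had a mean change over heat of 0.24 and 0.57, QCR9 (YGR183C) of 0.48 in both strains, and QCR10 (YHR001W-A) of 0.33 and 0.01.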
